A study of Rattus norvegicus with 18 samples.

Results

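The Period genes Per1, Per2 and Per3 encode the PER proteins of the circadian clock, the cell's own daily timer. They were taken from the count table by their Ensembl identifiers, ENSRNOG00000007387, ENSRNOG00000020254 and ENSRNOG00000018413, 3 of the 30562 genes counted. Each identifier lay on the chromosome that its gene should have, and all 3 genes passed the filter on low counts, which kept 16593 genes.

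In the clock, the transcription factors BMAL1 and CLOCK bind E-box sequences and switch on the Period and Cryptochrome genes. PER and CRY proteins then build up, enter the nucleus together and repress BMAL1 and CLOCK, so that Period transcripts rise and fall over the day in most tissues, the intestine included. PER1 and PER2 are the members on which this rhythm mainly depends, whereas loss of PER3 alone has milder effects on it.

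Bulk RNA sequencing of poly(A)-selected RNA was done on pieces of intestine from Sprague-Dawley rats, which are outbred and carry the label wild type. There were 3 groups of 6 libraries: untreated control rats, rats given a single X-ray dose of 10 Gy (irradiated), and rats given 10 Gy and afterwards the treatment that the labels call Changbing Formula (formula). The labels give neither the segment of the intestine, nor age, sex, the interval from irradiation to collection or the clock hour at collection, and say that the rats were kept under a light/dark cycle. They imply, without stating it, that each library is a separate animal, so the p-values measure the spread between these libraries.

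Library totals lay between 33598572 and 48398184 counts. Control 2 and irradiated 4 stood apart from the other 16 libraries on the first principal component of log2 expression, with scores of 176 and 216 against -52.9 to 34.2. Both are marked in the plots of single libraries, and values that move with them are also given without them. The files pair no other gene with a symbol, so markers of intestinal cell types and the remaining clock genes were not examined. In bulk tissue, fewer cells of a type and less RNA per cell cannot be told apart.

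In mRatBN7.2, Per1 lies on chromosome 10 from 53805535 to 53814431, forward strand. Per2 lies on chromosome 9 from 92007296 to 92049459 and Per3 on chromosome 5 from 161459533 to 161495607, both reverse strand. Their counted exons cover 4039, 5833 and 7220 bases, and 0 annotated genes on either strand overlap the span of any of them. Counting without strand therefore mixed no annotated neighbour into these counts.

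The promoter windows of the genes were searched because E-boxes and D-boxes are the sequences through which the clock acts on its own genes. The windows came from RefSeq on build GRCr8, a different build from that of the counts, and hold 250 bases before and 50 after 1 annotated start. For Per1 and Per3 the whole window lies inside the gene's RefSeq span, so other transcripts start further upstream. For Per2, 174 bases of the window lie outside the span, which thus also begins upstream of the start used. The motifs searched on both strands were the E-box CACGTG, the E-prime box CACGTT, the D-boxes TTATGTAA and TTACGTAA, and the cAMP response element TGACGTCA. Only the Per2 window held any of them: a D-box 192 to 185 bases before the start and an E-prime box 62 to 57 bases before it, which do not overlap. The D-box lies outside the RefSeq span of Per2 and the E-prime box inside it. The following 2 stretches of the reverse strand show them, the D-box in capitals in the part of the window outside the RefSeq gene span (chr9:99497070-99497243), and the E-prime box in capitals in a 30-base stretch (chr9:99497037-99497066).
Per2 D-box stretch: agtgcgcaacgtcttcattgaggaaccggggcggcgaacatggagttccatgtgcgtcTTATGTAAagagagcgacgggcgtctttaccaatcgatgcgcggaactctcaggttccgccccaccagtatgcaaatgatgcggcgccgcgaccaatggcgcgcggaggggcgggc
Per2 E-prime box stretch: acgcgcgcggtCACGTTttccactatgtga
Of 33469 promoter windows of the same length, 0.893% held TTATGTAA and 4.83% held CACGTT, while 6.42% held CACGTG, 0.12% TTACGTAA and 1.83% TGACGTCA. A match describes these letters and shows no binding.

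In control intestine all 3 genes were expressed at moderate levels. Scaled to exon length, Per2 stood at 12.2 ± 4.71, Per1 at 11.1 ± 4.30 and Per3 at 7.04 ± 2.25 CPM (counts scaled to the library total, with TMM factors) per kilobase (SD, n = 6). Per2 lay above Per3 in 6 of 6 control libraries on this scale, and Per1 lay above Per3 in 5 of 6. Per2 and Per1 did not separate, with Per2 higher in 4 of 6. The lowest control percentile among all genes tested was 41.2, for Per3, and the highest was 81.4, for Per2. In irradiated libraries the length-scaled means were 6.69 ± 3.34 for Per1, 6.04 ± 2.73 for Per2 and 2.85 ± 1.39 for Per3 CPM per kilobase (SD, n = 6). With the formula they were 7.09 ± 3.50, 7.69 ± 1.89 and 1.81 ± 0.557 in the same order (SD, n = 6). Per3 lay below Per2 in 6 of 6 libraries of both irradiated groups, and had the lowest mean of the 3 genes in every group.

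Against control, Per3 had the widest fitted differences of the 3 genes in edgeR, while Per1 spread too widely for its difference to be told from 0. Per2 came next after irradiation alone, and with the formula Per1 and Per2 lay about equally far below control. With limma-voom and quality weights the log2 differences after irradiation alone were of similar size, at -1.46 for Per1, -1.27 for Per2 and -1.44 for Per3. In edgeR's quasi-likelihood test, adjusted over all 16593 genes, none of the 3 genes passed in any of the 3 comparisons. Adjusted p-values below 0.05 were found for 0% of genes in either direction between irradiated and control and between formula and irradiated. Between formula and control they were found for 0.00603% higher and 0.00603% lower, 1 gene each. Unadjusted edgeR p-values lay below 0.05 for 321 genes after irradiation alone. That is a smaller share of the genes tested than the 0.05 expected where no gene differs. Between formula and irradiated, 928 genes had an unadjusted edgeR p below 0.05. DESeq2 called 0 and 8 genes in these comparisons and limma-voom with quality weights 0 in both. The fitted level was below control for 3 of 3 Period genes in both irradiated groups, as it was for 48.7% of all genes after irradiation alone and for 58% with the formula.

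**Figure D1:**
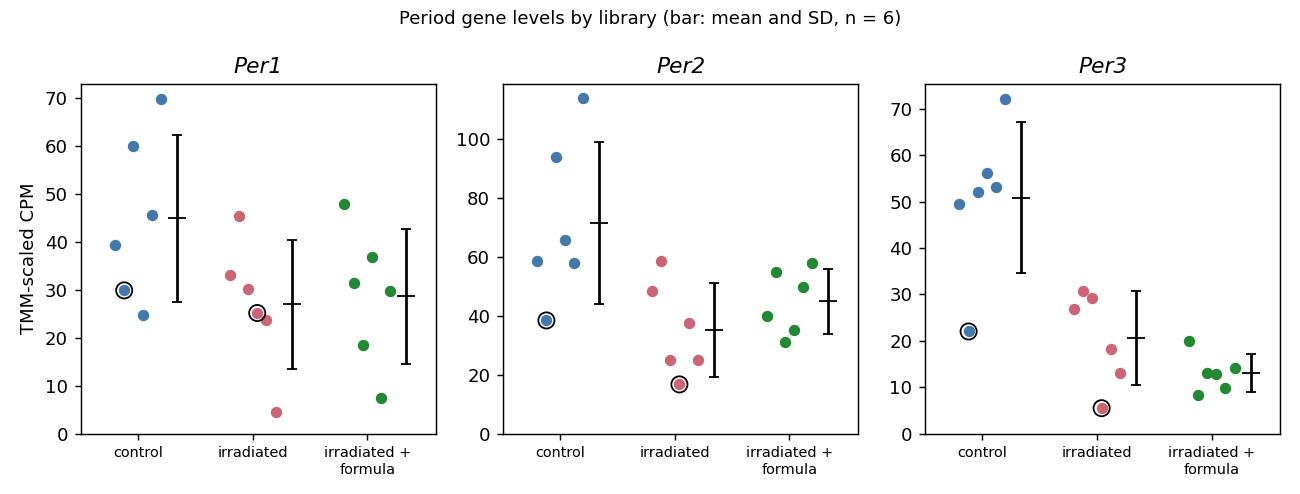
TMM-scaled CPM (vertical axis, linear) of Per1, Per2 and Per3 in each library, by group; dots are libraries, bars the mean and SD (n = 6), and circled dots control 2 and irradiated 4. The 6 Per3 values with the formula, at 8.39 to 19.997 CPM, lie below all control values, of which control 2 is the lowest at 22.03 CPM.

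Per1, which is known to be induced by glucocorticoids as well as by the clock, ranged from 24.7 to 69.8 CPM in control, with a median of 42.5 CPM. In irradiated libraries it ranged from 4.48 to 45.4 CPM around a median of 27.7 CPM, and with the formula from 7.47 to 47.8 CPM around 30.6 CPM. The groups overlapped broadly, although 2 irradiated libraries and 2 with the formula lay below every control. The lowest values belonged to irradiated 6 and formula 5, with 196 and 257 counts against 675 or more in every other library. These 2 libraries were not low in Per2 to the same degree, at 25.1 and 49.8 CPM. Their Per3, at 12.99 and 9.95 CPM, lay below the group medians of 22.5 and 12.9 CPM. Mean Per1 was 44.9 ± 17.4 CPM in control against 27.0 ± 13.5 CPM after irradiation and 28.6 ± 14.1 CPM in formula libraries (SD, n = 6). The log2 fold change was -0.73 (SE 0.45, 95% interval -1.68 to 0.21, edgeR adjusted p = 0.998) for irradiated against control. For formula against control it was -0.65 (SE 0.45, 95% interval -1.59 to 0.29, edgeR adjusted p = 0.883). Limma-voom with quality weights gave a wider difference for irradiated against control, -1.46 on the log2 scale (unadjusted p = 0.0274, adjusted p = 0.434). The edgeR intervals reach from a fall of more than 2-fold to a small increase, so a Per1 difference was neither shown nor bounded closely.

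Per2, a core repressor of the clock, ranged from 38.4 to 114 CPM in control, with a median of 62.2 CPM. It ranged from 16.7 to 58.5 CPM in irradiated libraries, with a median of 31.3 CPM, and from 31.1 to 58.0 CPM with the formula, with a median of 44.9 CPM. Of the irradiated libraries 4 of 6 lay below the lowest control, and 4 of 6 controls lay above the highest irradiated library. Means were 71.4 ± 27.4 CPM in control against 35.3 ± 15.95 CPM after irradiation and 44.8 ± 11.04 CPM in formula libraries (SD, n = 6). Control 2 and irradiated 4 held the lowest values of their groups, and without them the means were 78.05 ± 24.8 CPM in control and 39.0 ± 14.7 CPM in irradiated libraries (SD, n = 5).

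The fitted Per2 difference between irradiated and control was 2.03-fold, lower in irradiated libraries (log2 fold change -1.02, SE 0.30, 95% interval -1.66 to -0.38). Its unadjusted edgeR p was 0.00359, the 16th lowest of all genes, with an adjusted p of 0.998. Of all genes 1.28% were lower at an unadjusted p below 0.05 in this comparison. With the formula Per2 was 1.59-fold below control (log2 fold change -0.67, SE 0.30, 95% interval -1.31 to -0.04, unadjusted p = 0.0392, edgeR adjusted p = 0.865), where 3.27% of genes were lower at that threshold. Limma-voom with quality weights called this difference (log2 fold change -0.88, adjusted p = 0.0298), and no other alternative did. Limma-voom called 499 genes in this comparison.

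Per3 varied least between control libraries, with a coefficient of variation of 31.9% against 38.7% for Per1 and 38.4% for Per2. Without control 2 the coefficients were 15.8%, 36.8% and 31.8% in the same order. Control libraries 1, 3, 4, 5 and 6 lay between 49.6 and 72.1 CPM, and control 2 at 22.03 CPM. Irradiated libraries ranged from 5.51 CPM, in irradiated 4, to 30.6 CPM, with a median of 22.5 CPM. With the formula the range was 8.39 to 19.997 CPM and the median 12.9 CPM. All 6 libraries with the formula thus lay below all 6 controls, and 5 of 6 controls lay above every irradiated library of both groups. Formula libraries that all lay below control were seen for 0.344% of all genes. Means were 50.8 ± 16.2 CPM in control against 20.6 ± 10.05 CPM after irradiation and 13.1 ± 4.02 CPM in formula libraries (SD, n = 6).

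Per3 was 3.89-fold below control with the formula (log2 fold change -1.96, SE 0.36, 95% interval -2.72 to -1.20). The unadjusted edgeR p was 4.16e-05, the fifth lowest of all genes, and the adjusted p 0.119. The exact permutation test gave p = 0.00216, the smallest that 6 against 6 libraries can give (two-sided, adjusted p = 0.26 over all genes). Whether Per3 passed depended on the method and on which libraries entered the fit. Of 18 fits with 1 library left out, 16 did not pass (edgeR adjusted p up to 0.421), nor did 8 of 13 other alternatives. Without irradiated 4, which is in neither group, the edgeR adjusted p was 0.0148 at the same log2 fold change of -1.96, and with only the 12 libraries compared it was 0.0223. Without control 2 the log2 fold change was -2.12 (edgeR adjusted p = 0.0373), and without control 2 and irradiated 4 it was -2.08 (edgeR adjusted p = 0.00207). DESeq2 (adjusted p = 0.000142) and limma-voom with quality weights (adjusted p = 0.000531) also called it. They called 47 and 499 genes in this comparison.

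For irradiation alone, Per3 was 2.47-fold below control (log2 fold change -1.30, SE 0.36, 95% interval -2.05 to -0.56). Its unadjusted edgeR p was 0.00179, the 10th lowest of all genes, and the adjusted p 0.998. Leaving out control 2 and irradiated 4, which had the lowest Per3 values of their groups, left means of 56.6 ± 8.96 CPM in control and 23.6 ± 7.63 CPM in irradiated libraries (SD, n = 5). The ranges were then 49.6 to 72.1 CPM and 12.99 to 30.6 CPM. The log2 fold change without them was -1.20 and did not pass (edgeR adjusted p = 0.548). How many of all genes separate as fully without these libraries was not counted. The lowest adjusted p over all alternatives for Per3 in irradiated against control was 0.197, with limma-voom and quality weights.

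**Figure D2:**
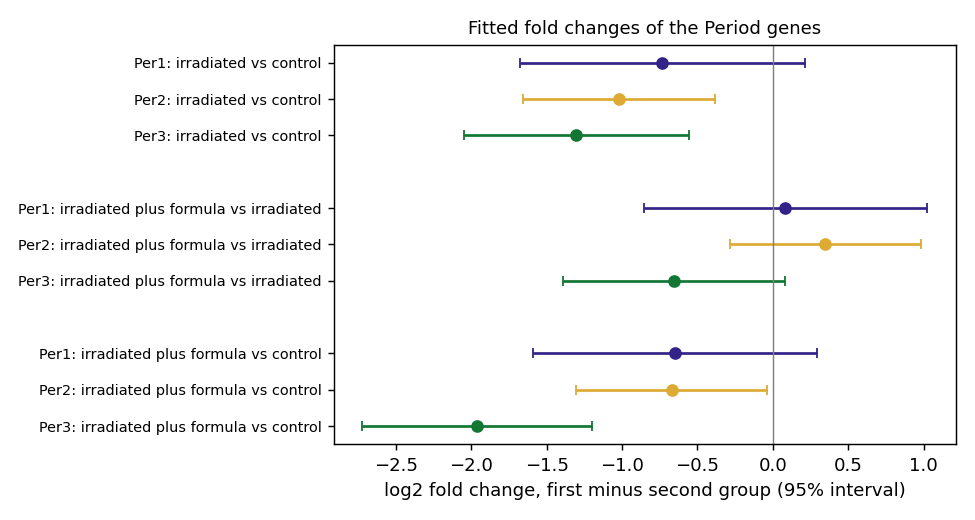
Fitted log2 fold changes (horizontal axis; points, with bars for the 95% interval) of each Period gene in each comparison, as first minus second group. Per3 lies farthest below 0 for formula against control, at -1.96, while the intervals of all 3 genes for formula against irradiated include 0.

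Between formula and irradiated libraries, the comparison that asks what the formula altered after irradiation, the fitted values did not share a direction. Per1 had a log2 fold change of 0.08 (SE 0.45, 95% interval -0.86 to 1.02, edgeR adjusted p = 0.964). Per2 had a fitted value 1.27-fold higher with the formula (log2 fold change 0.35, SE 0.30, 95% interval -0.29 to 0.98, edgeR adjusted p = 0.794). Its log2 fold change was 0.20 without irradiated 4, 0.17 without control 2 and irradiated 4, and 0.55 without irradiated 2. Per3 was 1.58-fold lower (log2 fold change -0.66, SE 0.35, 95% interval -1.39 to 0.08, edgeR adjusted p = 0.77), with 3 of 6 irradiated libraries above the highest library with the formula. None of these differences passed the test. The median log2 fold change of all genes was -0.02 here, 0.01 between irradiated and control and -0.07 between formula and control. The comparisons share groups, so their values for a gene are not independent.

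Ratios within a library do not depend on how libraries are scaled, and showed which Period genes differed unequally. The log2 ratio of Per3 to Per2 counts was -0.49 ± 0.32 in control against -0.86 ± 0.60 after irradiation and -1.80 ± 0.67 in formula libraries (SD, n = 6). It lay between -0.85 and -0.12 in control and between -2.71 and -1.002 with the formula, without overlap. The ratio was thus 2.48-fold lower with the formula than in control (two-sided exact permutation p = 0.00216, adjusted p = 0.0194 over the 9 ratio tests). It was the only ratio test to pass. The adjustment covers only ratios among the Period genes. Per3 alone also separated formula from control libraries, and how often other gene pairs separate them was not examined. Against irradiated libraries, the Per3 to Per2 ratio with the formula was 1.91-fold lower (exact permutation p = 0.0281, adjusted p = 0.0843). It passed without irradiated 4 or without formula 1 (exact permutation, adjusted p = 0.0486 in both cases). Of 12 tests with 1 library left out, the other 10 did not pass (exact permutation, adjusted p up to 0.169). Without control 2 and irradiated 4 the ratio with the formula differed by -1.38 from control (log2, exact permutation, adjusted p = 0.039) and by -1.09 from irradiated libraries (adjusted p = 0.0486). Between irradiated and control this ratio differed by less (1.30-fold, exact permutation p = 0.227, adjusted p = 0.511). It passed without irradiated 3, where the log2 difference was -0.59 (exact permutation, adjusted p = 0.039). In the other 11 of 12 tests with 1 library left out it did not pass (exact permutation, adjusted p up to 0.72).

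The Per3 to Per1 ratio was 2.24-fold lower with the formula than in control (exact permutation p = 0.0238, adjusted p = 0.0843). Without formula 5, the library with the lowest Per1 of its group, the log2 difference was -1.44 and passed (exact permutation, adjusted p = 0.00972). The other 11 of 12 tests with 1 library left out did not pass (exact permutation, adjusted p up to 0.169). The Per2 to Per1 ratio differed little in mean and widely between libraries, at 0.67 ± 0.39 in control against 0.53 ± 1.07 after irradiation and 0.82 ± 1.06 in formula libraries (log2, SD, n = 6). None of its 3 differences passed, the lowest exact permutation p being 0.628 (adjusted p = 0.807).

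**Figure D3:**
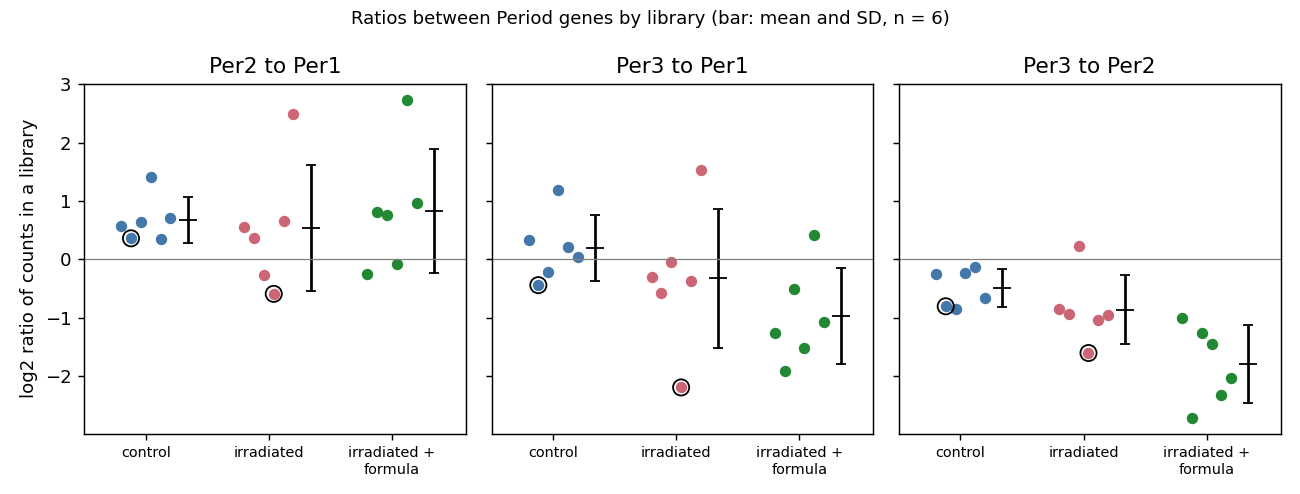
Log2 ratios of the counts of Period gene pairs within each library (vertical axis), by group; dots are libraries, bars the mean and SD (n = 6), circled dots control 2 and irradiated 4. The Per3 to Per2 ratios with the formula, at -2.71 to -1.002, lie below all control ratios, at -0.85 to -0.12.

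The Period genes varied together over the 18 libraries. Per2 and Per3 had a Pearson r of 0.70 (permutation p = 0.00131, adjusted p = 0.00393 over 3 relations) and a Spearman rho of 0.69 (permutation p = 0.00199, adjusted p = 0.00597). Without irradiated 4 and control 6, the libraries farthest from the Per2 median, r was 0.49 (permutation p = 0.0575), so the relation no longer passed without them. Without control 2 and irradiated 4, r was 0.60 (permutation p = 0.0136, adjusted p = 0.0169) and rho 0.66 (permutation p = 0.00717, adjusted p = 0.0194). Within groups it differed in sign: r was 0.84 in control (exact permutation p = 0.025, n = 6), 0.79 in irradiated (exact permutation p = 0.0542, n = 6) and -0.39 with the formula (exact permutation p = 0.463, n = 6). The difference between these values was not tested.

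Per1 and Per2 had r = 0.51 (permutation p = 0.0288, adjusted p = 0.0288) and rho = 0.57 (permutation p = 0.0151, adjusted p = 0.0151). For Per1 and Per3, r was 0.55 (permutation p = 0.0155, adjusted p = 0.0232) and rho 0.58 (permutation p = 0.0129, adjusted p = 0.0151). Without irradiated 6 and formula 5, the libraries farthest from the Per1 median, these r were 0.67 (permutation p = 0.00469) and 0.58 (permutation p = 0.0178). Without control 2 and irradiated 4 they were 0.59 and 0.60 (permutation test, adjusted p = 0.0169 for both). On deviations from the group means, r was 0.36 for Per1 with Per2, 0.43 for Per1 with Per3 and 0.63 for Per2 with Per3, with permutation p adjusted over 3 relations of 0.143, 0.111 and 0.0125. The rank correlations on the same deviations all passed, with rho of 0.498, 0.583 and 0.505 in the same order (permutation p adjusted over 3 relations of 0.0364 for each). Within single groups, r for Per1 with Per2 was 0.76 in control, 0.44 after irradiation and -0.11 with the formula (exact permutation p = 0.0722, 0.417 and 0.857, n = 6). For Per1 with Per3 it was 0.53, 0.40 and 0.52 in the same order (exact permutation p = 0.322, 0.351 and 0.29, n = 6).

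**Figure D4:**
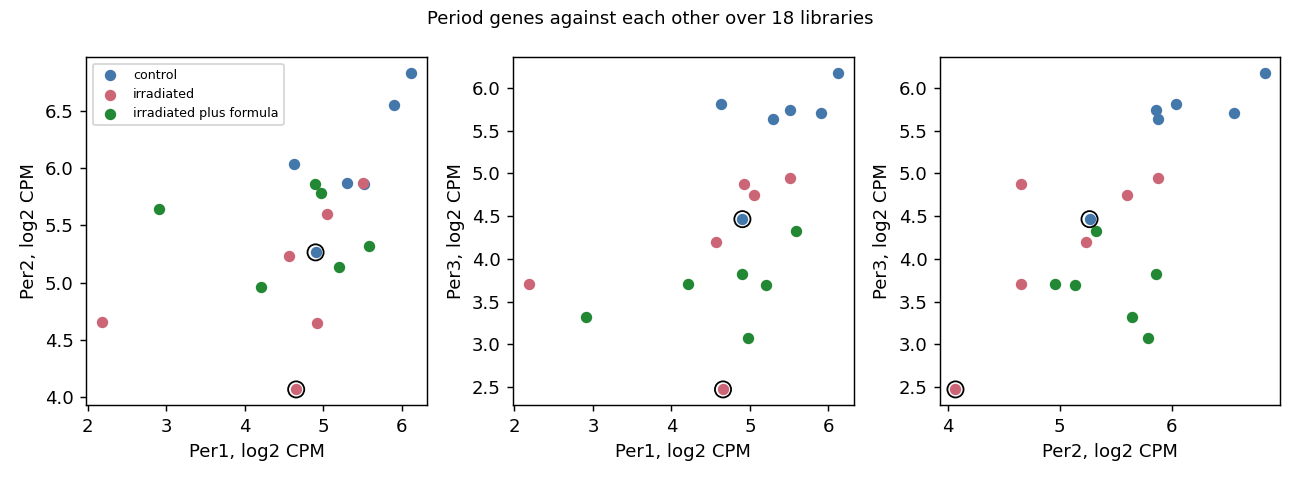
Log2 CPM of each pair of Period genes plotted against each other, 1 dot per library coloured by group, with control 2 and irradiated 4 circled. Over the 18 libraries r is 0.51, 0.55 and 0.70 from left to right, and libraries with the formula lie low in Per3 for their Per2 level.

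Likeness to a Period gene was ranked among 14318 other genes averaging 1 CPM or more, by Spearman rho over the 18 libraries, as a description. The gene most like Per3 was ENSRNOG00000019383, on chromosome 7 from 113317283 to 113341783 (forward strand), with rho = 0.94. Its level was 96.0 ± 31.8 CPM in control against 44.1 ± 24.5 CPM after irradiation and 26.7 ± 6.89 CPM in formula libraries (SD, n = 6), the same order of groups as Per3. The ranking included the group differences, so it favoured genes with such an order. On deviations from the group means the rho of this gene with Per3 was 0.79. Per2 ranked 38th in likeness to Per3, and Per1 191st. The gene least like Per3 was ENSRNOG00000010116, on chromosome 8 from 76199099 to 76223983 (forward strand), with rho = -0.82. It stood at 18.2 ± 2.52 CPM in control against 23.6 ± 4.89 CPM after irradiation and 26.1 ± 3.31 CPM in formula libraries (SD, n = 6), the reverse order. Its rho on deviations from the group means was -0.63.

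For Per2 the highest rho was 0.90, with ENSRNOG00000068914, on chromosome 18 from 25017083 to 25046591 (reverse strand). The lowest was -0.81, with ENSRNOG00000002278, on chromosome 14 from 35352829 to 35461557 (forward strand). The former stood at 39.4 ± 16.2 CPM in control against 25.4 ± 8.83 CPM after irradiation and 31.5 ± 6.72 CPM in formula libraries (SD, n = 6), lowest in the irradiated group as Per2 was. On deviations from the group means rho with Per2 was 0.75 for this gene and -0.62 for ENSRNOG00000002278. Per3 ranked 90th in likeness to Per2 and Per1 578th. For Per1 rho reached 0.90 and -0.85 at the extremes, with Per3 at rank 414 and Per2 at rank 472. The points share library and depth. Without control 2 and irradiated 4, the gene named as most like Per2 again ranked first (rho = 0.90), and the one named as most like Per3 was at rank 3 (rho = 0.94). The genes named as least like Per2 and Per3 were then 3rd and 7th from the lowest. Per2 moved from rank 38 to rank 134 in likeness to Per3, and Per3 from rank 90 to rank 133 in likeness to Per2.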

How the data were processed

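Per the file headers, the authors counted paired-end reads per gene with featureCounts 2.1.1 against mRatBN7.2 and Ensembl release 110, keeping pairs with both ends aligned, with no strand setting and no setting to count a pair once. The submitters' processing notes also list FastQC, fastp, STAR and SAMtools. Their versions are not given in the sources used here. Between 66.9% and 74.6% of counts from 1 to below 40 were even, so most pairs were counted as 2 reads and counting error exceeds what the counts imply. The deposited counts are raw, per the file headers, and exon lengths come from the same table. Groups came from the titles; the free-text descriptions call all 18 rats untreated.

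Counts of all 18 libraries were tested in R 4.3.3 with edgeR 4.0.16 (filterByExpr, TMM, quasi-likelihood test, no covariates), with Benjamini-Hochberg adjustment over 16593 genes and a threshold of 0.05. SEs were derived from F (log2 fold change over its root), so intervals are approximate. Log2 CPM used a prior count of 2. The procedure was tested on simulated counts, drawn independently for each gene, with 67 genes changed 2-fold, 67 changed 4-fold and 66 changed 8-fold. For formula against control, edgeR recovered 22.4% of genes changed 2-fold, 58.2% of those changed 4-fold and 89.4% of those changed 8-fold. Changes of 2-fold were thus mostly missed in the simulation. Recovery in the data can be lower, because fewer genes were called there and no simulated library stood apart as control 2 and irradiated 4 did. Permutation tests were two-sided, exact for groups of 6 and with 100000 resamples over 18 libraries. The permutation test of single genes was adjusted over all genes rather than over the 9 tests first planned. Alternatives were other scalings, filters, DESeq2 1.42.0, limma 3.58.1 voom with quality weights, halved counts, 12 libraries, a replicate block and libraries left out.

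Irradiated plus formula libraries are called formula libraries. The genes and lists were chosen with earlier results of these data known. The gene table supplied matched 0 of 30562 identifiers, so the lists of clock genes and cell type markers were not used here. The rule for named genes took the Period genes and, by Spearman rho, those most and least like them, with at most 2 identifiers for a Period gene. All library pairs differed by more than sampling noise (lowest median chi-square 6.36 over 153 pairs, where sampling gives 0.455).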

Additional observations from a re-analysis of the deposited data

How the results depend on the processing

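All 3 Period genes kept a lower fitted level than control in both irradiated groups under every alternative run. For Per3 with the formula against control, -1.96 without passing, the log2 fold change passed with DESeq2 (-1.93), limma-voom with quality weights (-1.92), only the 12 libraries (-1.96), and without control 2 and irradiated 4, with or without irradiated 1 (-2.08 each). Leaving out 1 library gave -2.12 to -1.84, and passed without control 2 or irradiated 4. Per2 with the formula against control passed with limma-voom alone (-0.88). Per1 with the formula against irradiated, at 0.08, lay between -0.14 and 0.30 with 1 library left out, below 0 in 3 of 18, and was 0.63 with limma-voom. The cause was not tested.

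For formula against control 2 genes were called, against 47 with DESeq2, 499 with limma-voom, 6 with only the 12 libraries, 7 without control 2 and irradiated 4 and 7 without irradiated 1 as well, 0 in the permutation test, and 2 to 5 with 1 library left out. The smallest p of the permutation test, 0.00216, became 0.26 after adjustment over all genes. It could call genes only if many more reached that p together. For formula against irradiated DESeq2 called 8 against 0, none of them a Period gene.

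With 1 library left out, log2 ratio differences ranged for Per2 to Per1 from -0.53 to 0.085 (irradiated against control), -0.10 to 0.68 (formula against irradiated) and -0.23 to 0.36 (formula against control). They ranged for Per3 to Per2 from -0.59 to -0.23 and -1.09 to -0.72 in the first 2 comparisons, and for Per3 to Per1 with the formula against control from -1.44 to -0.96. With the formula against control, Per3 to Per2 stayed past the threshold in all 12. Leaving out control 2 and irradiated 4 together, an alternative chosen after seeing the data as were the likeness ranks and coefficients of variation without them, gave 0.023 for Per2 to Per1 (irradiated against control), the opposite sign, and let Per3 to Per2 pass with the formula against irradiated (-1.09).

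The replicate block called 1 gene with the formula against control and left Per3 at -1.99 (edgeR adjusted p = 0.528). Sign flips over same-numbered pairs, as a replicate block, gave the Per3 to Per2 ratio the same difference of -1.31. The exact permutation p was 0.0312, the smallest that 6 pairs allow, and the adjusted p 0.281. It could pass only if most of the 9 ratio tests reached that p together. Same-numbered libraries correlated over 0.1 in 5 of 18 pairs (range -0.51 to 0.61), so the numbers were not taken as pairs. On deviations from group means, r for Per1 with Per2 (0.36) and with Per3 (0.43) no longer passed, while rho (0.50 and 0.58, permutation test, adjusted p = 0.0364 for both) did.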
